A study of Homo sapiens with 3 samples.

Results

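SC1 is a human B-cell lymphoma line, labelled as diffuse large B-cell lymphoma (DLBCL). In these cells 8342 CREBBP peaks were 800 bp or wider and shared no base with any H3K27ac region. They were 3.87% of the 215598 CREBBP peaks on chromosomes 1 to 22 and X (95% interval 3.79 to 3.95%) and 83.5% of the 9989 peaks of that width (82.8 to 84.2%). Of all 215598 CREBBP peaks, 204695 lay outside H3K27ac regions, a larger share than the 83.5% of broad peaks. The names of the peaks include DMSO and rep2, terms that no label accounts for. The members were chosen by their width and position in the deposited lists, so neither is a result. The study held 3 samples of SC1 cells, for which the labels give no treatment: a chromatin immunoprecipitation with an antibody to CREBBP, one with an antibody to H3K27ac, and an input without antibody that was not analysed here. Each group held 1 sample and a peak list was used for 2 of them, so no value has a replicate error and no difference between cultures could be tested. Shares are given with exact Clopper-Pearson intervals, in which each peak counts as independent and only counting error enters.

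CREBBP is a lysine acetyltransferase that is brought to promoters and enhancers by transcription factors and acetylates histones there. H3K27ac, acetylation of histone H3 at lysine 27, is one of its products and marks active promoters and enhancers. CREBBP is often mutated in lymphomas of germinal-centre origin. Centromeres are built from long arrays of satellite repeats, which genome assemblies hold as gaps or as collapsed copies, and the flanks of centromeres are rich in duplicated segments. Short reads from such sequence cannot always be placed at 1 position.

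Most of these broad peaks were shallow. Fold enrichment, the authors' ratio of ChIP signal to expected background, had a median of 2.60 (interquartile range 2.17 to 3.04) in the broad outside peaks. It was 2.56 (2.04 to 3.24) in the 1647 broad peaks inside H3K27ac regions and 2.17 (2.03 to 2.60) in the 196353 narrower peaks outside. Fragments at the summit were solved from fold and p, as described under the processing. The median broad outside peak held 5 fragments (5 to 7) at the summit, on a background of 1.30 (1.30 to 1.85). The median broad inside peak had 20 (12 to 27) over a background of 7.39, and the median narrower outside peak had 5 (4 to 6) over 1.30. The commonest background of the list, 1.30 fragments, stood under 54.0% of the broad outside peaks, 3.58% of the broad inside peaks and 57.4% of the narrower outside peaks. A broad outside peak therefore matched a narrower outside peak in median fragments while it was wider, with a median of 929 bp (854 to 1066) against 351 bp (290 to 454).

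Up to 99 fragments, width rose with their number among peaks outside H3K27ac regions. At 3 fragments 0.490% of outside peaks were 800 bp or wider (0.409 to 0.581%), at 5 fragments 4.71% (4.53 to 4.89%), at 10 to 14 fragments 8.61% (7.75 to 9.52%) and at 30 to 99 fragments 25.6% (19.1 to 33.1%). Peaks of 4 to 6 fragments nevertheless made up most of the set, with 1581 members at 4 fragments, 2514 at 5 and 1771 at 6. At 100 fragments or more there were 31 members, of which 25 lay within 2 Mb of the stretch that stands in for the centromere, defined below.

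The broad outside peaks were also less often centred on their summit. In the broad outside peaks the summit stood at a median of 23.7% of the width from the nearer edge (14.4 to 35.5%), against 27.2% in broad inside peaks and 31.0% in narrower outside peaks. It fell within 25% of the width from an edge in 53.3% of broad outside peaks, 44.7% of broad inside peaks and 35.8% of narrower outside peaks. These shares describe shape and were not tested.

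**Figure D1:**
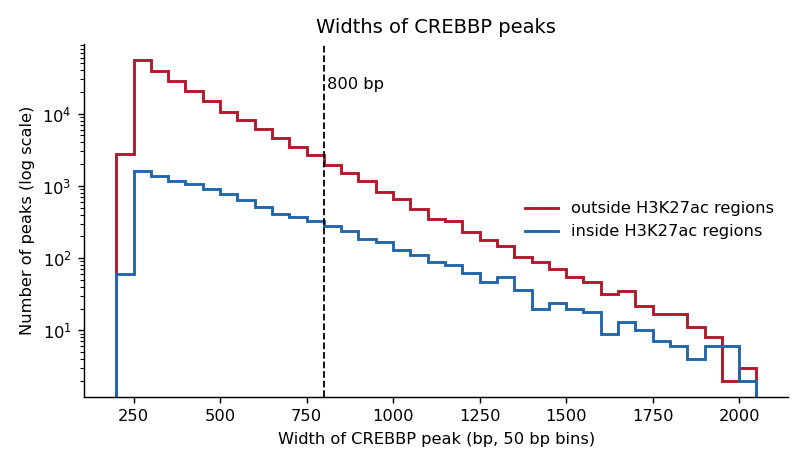
Number of CREBBP peaks (log scale) by width in 50 bp bins, outside (red) and inside (blue) H3K27ac regions (the few peaks wider than the axis are not drawn). The dashed line is the limit of 800 bp, at which the counts fall without a break, and 8342 outside and 1647 inside peaks lie at or right of it.

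The width limit falls on a smooth slope. Just inside it, 38 outside peaks were 800 bp wide, with a median fold of 2.17 and 5 fragments. Just outside it, 40 were 799 bp wide, with a median fold of 2.52 and 6 fragments. Of the first 3 peaks in genome order inside the limit, fold was 2.17 on chromosome 1 (229331811 to 229332610), and those on chromosome 2 from 27824142 to 27824941 and from 99320074 to 99320873 had folds of 2.46 and 2.95. The first 3 just below it, all on chromosome 1, had folds of 2.58 (87328663 to 87329461), 1.83 (226632820 to 226633618) and 1.86 (227100363 to 227101161). Of the members, 5438 were under 1000 bp wide, 2626 were 1000 to 1500 bp, 246 were 1500 to 2000 bp and 32 were 2000 bp or wider.

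The widest members lay near the presumed centromere gaps more often than the rest. No table of centromeres on hg19, the build of these lists, was used. The longest stretch of each chromosome without any CREBBP peak stood in for the centromere gap. Its bounds are the edges of CREBBP peaks or the chromosome's start, so the bounding peaks touch it by definition. In 18 chromosomes it lay between peaks, and in chromosomes 13, 14, 15, 21 and 22 it ran from the chromosome's start to the first peak. Whether the stretches of those 5 chromosomes hold the centromere gap was not checked. The stretches measured from 3.001 to 21.1 Mb, and the next longest stretch between peaks on any of the 18 chromosomes was 1.18 Mb. Of the 8342 members 395 lay within 2 Mb of such a stretch, 4.74% (4.29 to 5.21%). The share was 3.86% (3.37 to 4.41%) of members under 1000 bp, 5.41% (4.57 to 6.34%) at 1000 to 1500 bp, 11.8% (8.04 to 16.5%) at 1500 to 2000 bp and 43.75% (26.4 to 62.3%), 14 of 32, at 2000 bp or wider.

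These flanks held 2.87% of the chromosomes' length and 2.89% (2.82 to 2.97%) of narrower outside peaks. Broad inside peaks lay there in 1.76% of cases (1.18 to 2.52%). The density of broad outside peaks was 4.82 per Mb within 2 Mb of a stretch and 2.87 per Mb beyond, a ratio of 1.68. Narrower outside peaks stood at 69.2 per Mb within 2 Mb and 68.8 per Mb beyond, a ratio of 1.01. Leaving out 1 chromosome at a time gave ratios for the broad outside peaks from 1.498, without chromosome 21, to 1.78, without chromosome 3. Peaks outside H3K27ac regions were 800 bp or wider in 6.51% of cases within 2 Mb (5.90 to 7.15%) and in 4.001% beyond (3.92 to 4.09%).

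The excess was uneven among chromosomes. Chromosome 21 held 50 of the 395 near members, 25 per Mb within 2 Mb of its stretch against 1.83 per Mb beyond, a 13.7-fold difference. Its stretch ran from the chromosome's start to position 9413503, so these densities need not be those beside its centromere. Chromosome 16 had 6.25 per Mb near and 1.85 beyond, chromosome 17 had 7 near and 2.26 beyond, and chromosome 14 had 6 near and 2.10 beyond. Chromosome 7 held 45 near members, at 11.25 per Mb against 5.78 beyond. The density was higher within 2 Mb on 18 of 23 chromosomes, but over 2 times as high on only 6 of them. On chromosome 9, counted among the 18, it was 2.5 per Mb near and 2.497 beyond. It was lower on 5 chromosomes, among them chromosome 3, with 3 near members at 0.750 per Mb against 3.45 beyond. The median ratio over chromosomes was 1.66.

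**Figure D2:**
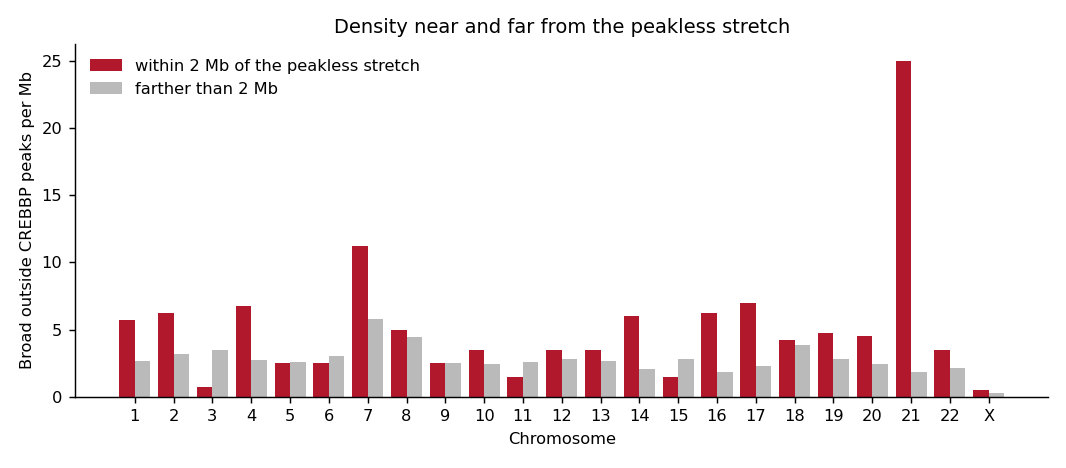
Broad CREBBP peaks outside H3K27ac regions per Mb on each chromosome, within 2 Mb of its longest peakless stretch (red) and farther away (grey). Chromosome 21 stands highest near its stretch at 25 per Mb, against 1.83 per Mb farther away, and chromosomes 3, 5, 6, 11 and 15 run the other way.

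The share of broad peaks fell with distance from the stretch. In the first 100 kb 70 of 624 outside peaks were broad, 11.2% (8.85 to 13.96%). Outside peaks that bound a stretch fall in this interval by definition. The share was 6.90% (5.60 to 8.39%) from 0.1 to 0.5 Mb, 5.88% (4.70 to 7.25%) from 0.5 to 1 Mb and 5.55% (4.72 to 6.47%) from 1 to 2 Mb. Beyond that it lay between 3.65% and 4.10% in every interval. Broad outside peaks numbered 17.1 per Mb in the first 100 kb and 2.49 per Mb from 2 to 5 Mb, and narrower outside peaks numbered 135 and 62.2 per Mb there. The median number of fragments in the broad outside peaks was 12 in the first 100 kb and 6 from 2 to 5 Mb, over median backgrounds of 3.70 and 1.33.

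Fragments moved with this result, since near members had a median of 7 fragments (5 to 12) and those beyond 5 (5 to 7). Outside peaks with like fragments were therefore set side by side. At 4 fragments 2.85% of near peaks (2.13 to 3.73%) and 2.41% of those beyond (2.29 to 2.53%) were broad. At 5 fragments the shares were 5.37% near (4.23 to 6.702%) and 4.69% beyond (4.51 to 4.88%). At 6 fragments they were 7.83% near (6.04 to 9.95%) and 5.86% beyond (5.59 to 6.13%). The intervals overlapped at 4, at 5 and at 6 fragments, which most members had. At 7 to 9 fragments the shares were 10.9% near (8.75 to 13.4%) and 7.28% beyond (6.96 to 7.62%), and at 10 to 29 fragments 17.9% near (14.4 to 21.8%) and 8.61% beyond (7.78 to 9.49%). Fragments were only roughly alike from 10 to 29. Of all outside peaks 8.61% were broad at 10 to 14 fragments and 14.1% at 15 to 29. At 30 fragments or more they were 22.9% near (17.1 to 29.5%) and 28.2% beyond (19.7 to 37.9%), with overlapping intervals.

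**Figure D3:**
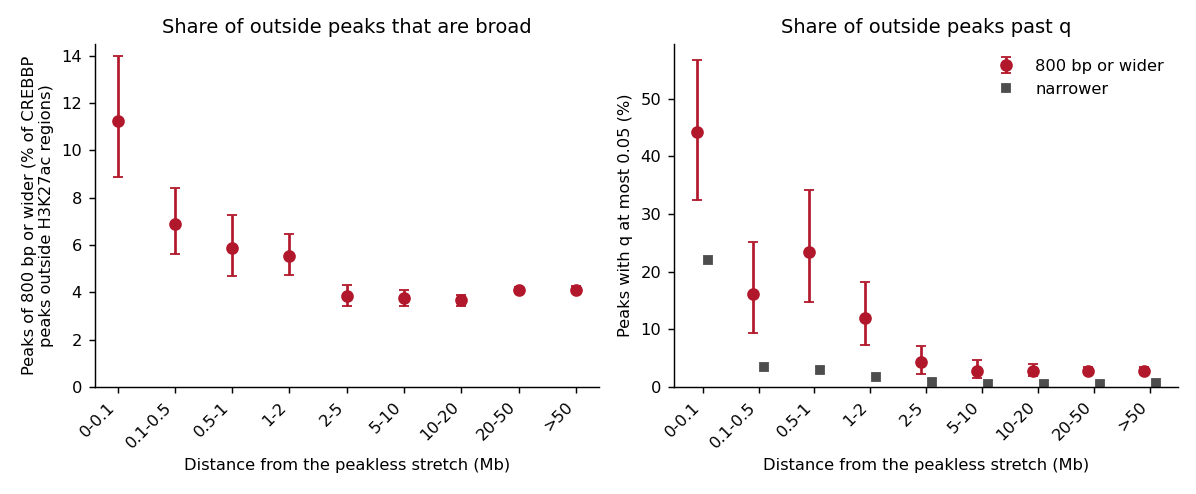
CREBBP peaks outside H3K27ac regions by distance from the longest peakless stretch of their chromosome (Mb), with the share that is 800 bp or wider on the left, and on the right the share with q at most 0.05 among broad (red circles) and narrower (grey squares) peaks. Bars are exact 95% binomial intervals. Both shares are highest in the first 0.1 Mb, at 11.2% and, for broad peaks, 44.3%.

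Strong peaks, those with q of at most 0.05, were a small part of the set. Near the stretches lay 26.9% of the strong broad outside peaks and 17.8% of the strong narrower ones. A q of at most 0.05, taken from the authors' list, was reached by 309 of the 8342 members, 3.70% (3.31 to 4.13%). Over all CREBBP peaks 1.81% reached it. The share was 39.95% (37.6 to 42.4%) of broad inside peaks and 0.707% (0.670 to 0.745%) of narrower outside peaks. Width and q both rise with fragments, so these shares follow in part from the choice of members. At 4, at 5 and at 6 fragments no outside peak of either width reached that q. At 7 to 9 fragments 3.50% of broad and 1.66% of narrower outside peaks reached it. At 10 to 29 fragments the shares were 40.6% and 19.3%, and at 30 or more 87.5% and 79.5%. Fragments were only roughly alike within these wider ranges. Within 2 Mb of a stretch 83 of 395 members reached it, 21.01% (17.1 to 25.4%), and beyond 226 of 7947, 2.84% (2.49 to 3.23%). Narrower outside peaks showed the same order, with 247 of 5677 within 2 Mb, 4.35% (3.84 to 4.91%), and 1141 of 190676 beyond, 0.598% (0.564 to 0.634%). In the first 100 kb it was 31 of 70, 44.3% (32.4 to 56.7%), where 22.02% of narrower outside peaks reached it. Of the 83 near members with that q, 16 lay on chromosome 2, 14 on chromosome 16 and 14 on chromosome 21.

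The members with the highest −log10 q stood on very high backgrounds. The highest, 321.5, was at chromosome 5 from 10018 to 11774, the one of these 5 that was not near a peakless stretch, with 880 fragments over a background of 167. That position is at the start of chromosome 5. The second, 265, was at chromosome 2 from 92324116 to 92325949, with 1907 fragments over 752 and a fold of 2.53, and it ended where the stretch began. The third, 206, was at chromosome 18 from 18518397 to 18520322, 7.36 kb from the stretch, with 2622 fragments over 1334 and a fold of 1.96. The fourth, 152.0, was at chromosome 21 from 9825458 to 9827551, with 984 fragments over 364. The fifth, 151.8, was at chromosome 16 from 46390816 to 46392635, 4.89 kb from the stretch, with 1012 fragments over 381. These fragment numbers are far above the median of 5. The folds of these 5 peaks ran from 1.96 to 5.24, where the set had a median of 2.60 (interquartile range 2.17 to 3.04).

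A background of 20 fragments or more stood under 48 members, 0.575%, and 35 of these lay within 2 Mb of a stretch. The share was 0.188% of all CREBBP peaks and 3.28% of broad inside peaks, so it was higher in broad inside peaks than in the members. Chromosome 2 held 17 of the 48 and chromosome 16 held 11. Near members had such a background in 8.86% of cases and members beyond in 0.164%. Narrower outside peaks had it in 2.10% of cases near and 0.0231% beyond, so this order was not confined to broad peaks. Of the 40 members with a −log10 q of 10 or more, 28 had a background that high and 2 had one that could not be solved. Of the same 40, 27 lay within 2 Mb of a stretch, and 13 were on chromosome 2. The part that background played in the width or strength of these peaks was not tested.

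**Figure D4:**
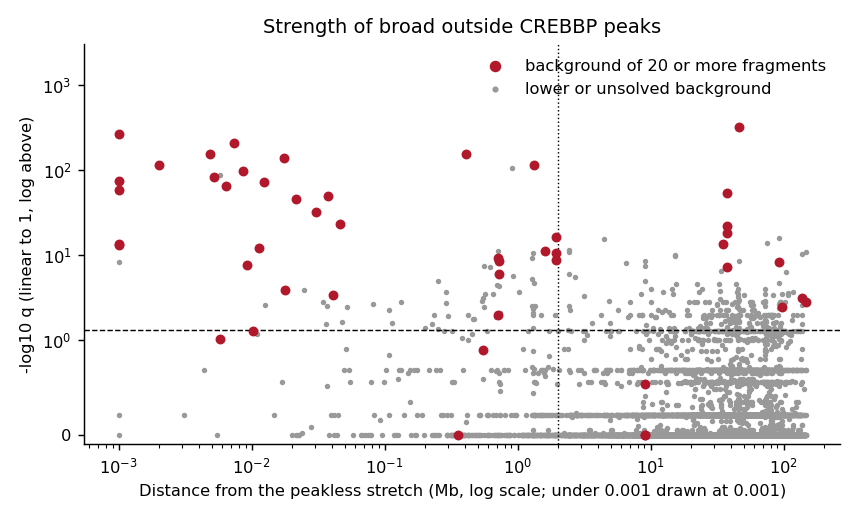
The −log10 q of each broad outside CREBBP peak (linear to 1, log above) against its distance from the longest peakless stretch (Mb, log scale). Red points have a background of 20 fragments or more, the dashed line is q = 0.05 and the dotted line 2 Mb, and 27 of the 40 points at a −log10 q of 10 or more lie left of it.

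The peaks with the largest fold had moderate fragment numbers and were not the widest. The top fold, 7.95, belonged to a peak on chromosome 9 from 42818385 to 42819206, with 29 fragments over a background of 2.77, 74.3 kb from H3K27ac and 4.44 Mb from the stretch. Chromosome 2 held a pair, a peak of fold 6.89 at 89875059 to 89876061 and one of fold 6.46 at 89878469 to 89879391, each with 25 fragments and 2.45 Mb from the stretch. Another, of fold 6.76 with 18 fragments, lay on chromosome 18 at 64771482 to 64772488, 1512 kb from H3K27ac. The fifth was on chromosome 21 (10031952 to 10032876), where 17 fragments gave 6.32.

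The 10 widest members spanned 2425 to 3554 bp, and 7 of them lay within 2 Mb of a stretch. The widest, 3554 bp on chromosome 16 from 46403498 to 46407051, lay 17.6 kb from the stretch and 3.46 kb from an H3K27ac region, with 947 fragments over 361. A second peak on that chromosome, from 46387927 to 46390351, was 2425 bp wide with 558 fragments over 172. The peak of 3275 bp on chromosome 21 from 10699849 to 10703123 had 44 fragments over 11.1 and lay 535 kb from H3K27ac. The peak of 3054 bp on chromosome 6 from 58776360 to 58779413 ended at the stretch, with 1130 fragments over 862 and a fold of 1.31.

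The other near peaks among the 10 widest had 7 to 44 fragments at their summits. They were 2816 bp on chromosome 10 from 38883590 to 38886405 with 7 fragments, 2742 bp on chromosome 4 from 49109390 to 49112131 with 44, and 2722 bp on chromosome 7 from 61782455 to 61785176 with 19. For the last of these, H3K27ac was 1980 kb away. The 3 that lay far from a stretch were 3201 bp on chromosome 13 from 92010126 to 92013326 with 26 fragments, 2547 bp on chromosome 2 from 242948873 to 242951419 with 61, and 2532 bp on chromosome 1 from 19470384 to 19472915 with 10. Great width thus came with anything from 7 to 1130 fragments.

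The ends of the chromosomes held a smaller group. Within 2 Mb of an end, as the first and last positions of the lists give it and leaving out the starts of chromosomes 13, 14, 15, 21 and 22, lay 289 members, 3.46% (3.08 to 3.88%), and 2.59% (2.52 to 2.66%) of narrower outside peaks. Broad inside peaks lay there in 4.86% of cases (3.87 to 6.01%), so the broad outside peaks did not have the highest share. Of the 309 members with q of at most 0.05, 34 lay there, 11.003% (7.74 to 15.04%), against 5.98% (4.79 to 7.36%) of the 1388 narrower outside peaks of that strength. For the 658 broad inside peaks of that strength it was 5.93% (4.25 to 8.01%).

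Most broad outside peaks stood alone or in pairs, and 33.7% were clustered. A cluster was 3 or more members with each within 100 kb of the next. There were 661 clusters with 2808 members, 33.7% of the set (32.6 to 34.7%), while 3450 members stood alone and 2084 stood in pairs. Neighbouring members lay a median of 156 kb apart (53.8 to 393 kb). Most clusters were small, with 341 of exactly 3 members, 160 of 5 or more and 18 of 10 or more, and their median span was 118 kb (76.0 to 161 kb).

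Clustering was more frequent near the peakless stretches, where the density was also higher. Within 2 Mb 245 of 395 members were clustered, 62.0% (57.0 to 66.8%), against 32.3% (31.2 to 33.3%) beyond. Of the 661 clusters 40 lay there, 6.05% (4.36 to 8.15%), and of the 18 clusters of 10 or more members 6 did. Within clusters 187 members, 6.66% (5.77 to 7.65%), reached a q of 0.05, and outside clusters 122 did, 2.20% (1.83 to 2.63%). An H3K27ac region lay within the span of 280 clusters, 42.4% (38.6 to 46.2%). The median distance of a member to H3K27ac was 74.1 kb in clusters and 79.8 kb outside them.

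The 5 clusters with most members lay on chromosomes 18, 21 and 3. On chromosome 18 a cluster of 29 members ran from 63215009 to 64266040, and a cluster of 24 from 64366737 to 64772488 followed just beyond the joining distance. They held 203 and 97 narrower outside peaks, and the nearest H3K27ac region to a member was 24.2 kb away in the first and 1107 kb in the second. Both lay over 44.7 Mb from the stretch, with a median of 10 and 9 fragments over backgrounds of 2.75 and 2.77. The widest member was 1732 bp in the first (63585173 to 63586904) and 1645 bp in the second (64673029 to 64674673).

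On chromosome 21 a cluster of 29 members ran from 9416623 to 10155134 and began 3.12 kb from the stretch. Another of 19 ran from 10572217 to 10903498. Together they made up 48 of the chromosome's 117 members, and 8 members of the first and 6 of the second reached a q of 0.05. Their widest members, 2094 bp at 9825458 and 3275 bp at 10699849, are described above. The fifth cluster held 18 members on chromosome 3 from 174594137 to 175113915, 81.1 Mb from the stretch, with 7 H3K27ac regions within its span. Its widest member was 2138 bp (174912774 to 174914911) with 7 fragments over 1.30. A cluster of 18 on chromosome 7 from 120504287 to 121015600 tied with it and held 8 H3K27ac regions.

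The densest cluster described here was chosen after its values were seen. It lay at the edge of the stretch on chromosome 16 from 46385927 to 46453834, with 12 members in 67.9 kb and 17 narrower outside peaks. Its members had a median of 454 fragments over a background of 158, and 10 of the 12 reached a q of 0.05. One H3K27ac region lay in its span, 1.85 kb from the nearest member.

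Along the chromosomes the broad outside peaks were frequent where narrower outside peaks were frequent. In 2890 windows of 1 Mb the number of members and of narrower outside peaks had a Spearman rho of 0.69, and 0.70 in the 2787 windows beyond 2 Mb of a stretch. With the number of H3K27ac regions the members had a rho of 0.36. These are descriptions over windows of 1 library, and peak calling in a window depends on its depth. The share of outside peaks that were broad was 1.58% (1.25 to 1.97%) in windows with under 30 narrower peaks, 3.47% (3.30 to 3.66%) at 50 to 70, 5.02% (4.81 to 5.23%) at 100 to 150 and 7.91% (7.07 to 8.82%) at 150 or more. No member lay in 574 windows, 19.9%.

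Chromosome 7 held the most members, 924, or 5.92 per Mb, and 5.58% of its outside peaks were broad (5.24 to 5.94%). Chromosome 8 followed in density with 4.45 per Mb and chromosome 18 with 3.87 per Mb. Broad peaks were 4.77% of the outside peaks on chromosome 8 and 4.92% on chromosome 18. Chromosome X had 45, or 0.296 per Mb, and 1.66% of its outside peaks were broad (1.22 to 2.22%). Narrower outside peaks had the same order on these 4 chromosomes. They stood at 100 per Mb on chromosome 7, 88.9 on 8, 74.9 on 18 and 17.5 on X, against 68.8 over all chromosomes. There were 105 clusters on chromosome 7, 66 on chromosome 8 and none on X. Clustered members made up 59.8% on chromosome 21, 52.8% on chromosome 7 and 46.2% on chromosome 18, against 16.7% on chromosome 20. Gains and losses of chromosome segments in SC1 were not measured in these lists, and their part in the densities was not tested.

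Seen from H3K27ac, the broad outside peaks were spread over all distances. The median distance to the nearest H3K27ac region was 77.9 kb (27.6 to 215 kb) in the broad outside peaks and 103 kb (32.8 to 296 kb) in narrower outside peaks. Over 50 kb away lay 5135 members, 61.6% (60.5 to 62.6%), against 66.5% (66.3 to 66.8%) of narrower outside peaks. Within 1 kb of a region lay 40 members, 0.480%, and a further 199 lay from 1 to 5 kb. The share of outside peaks that were broad was 2.75% (1.98 to 3.73%) within 1 kb, 4.75% (4.57 to 4.93%) from 10 to 50 kb, 3.81% (3.68 to 3.95%) from 100 to 500 kb and 2.66% (2.36 to 2.98%) beyond 1000 kb.

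The order of these distances changed with the number of fragments: the broad outside peaks lay nearer at 4, at 5 and at 30 or more fragments, and the narrower ones nearer at 6 to 29. At 4 fragments the median distance was 123 kb in the broad outside peaks and 148 kb in narrower ones, and at 5 fragments 85.5 and 97.8 kb. At 6 fragments it was 67.1 kb in the broad outside peaks and 64.3 kb in narrower ones. At 7 to 9 fragments it was 57.9 kb against 39.2 kb in narrower peaks, and at 10 to 29 fragments 54.0 kb against 25.1 kb. From 4 to 29 fragments, peaks with more of them lay nearer to H3K27ac in both groups. The broad and the narrower outside peaks both had a median of 5 fragments, with interquartile ranges of 5 to 7 and 4 to 6. Their fragments were nevertheless not alike. Broad peaks were 0.490% of outside peaks at 3 fragments and 2.42% at 4, against 4.08% of all outside peaks. Such low numbers were thus commoner among the narrower peaks, and the pooled distances do not compare peaks of like fragments. The part that fragments played in the pooled order of distances was not tested. At 30 or more the medians were 105 kb in the broad outside peaks and 144 kb in narrower ones.

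**Figure D5:**
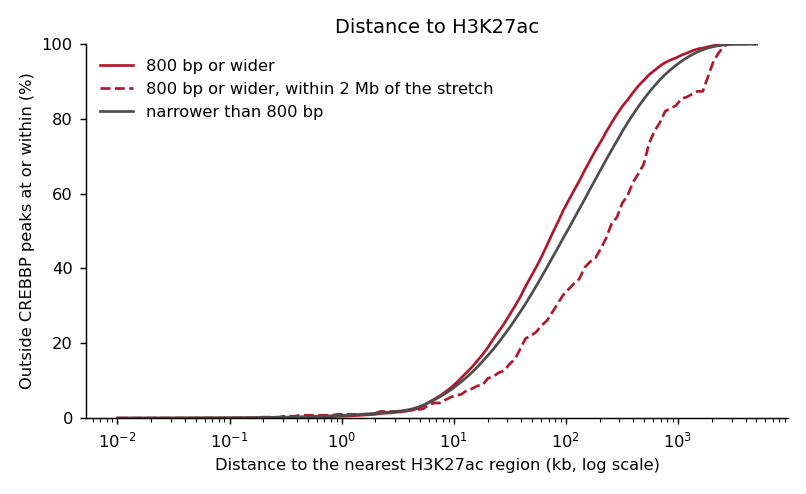
Cumulative share of CREBBP peaks outside H3K27ac regions by distance to the nearest region (kb, log scale), for broad peaks (solid red), broad peaks within 2 Mb of a peakless stretch (dashed red) and narrower peaks (grey). The broad peaks reach 50% at 77.9 kb, those near a stretch at 244 kb and the narrower peaks at 103 kb.

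Near the peakless stretches H3K27ac was sparse, and the members there lay farther from it. There were 0.732 H3K27ac regions per Mb in the first 100 kb, 2.20 from 0.1 to 0.5 Mb, 4.15 from 0.5 to 1 Mb and 6.88 from 2 to 5 Mb. The median distance of a member to H3K27ac was 244 kb (62.2 to 579 kb) within 2 Mb of a stretch and 74.7 kb (26.8 to 202 kb) beyond. For narrower outside peaks it was 185 kb within 2 Mb and 101 kb beyond. The share of members with q of at most 0.05 was 2 of 40 within 1 kb of H3K27ac (0.611 to 16.9%), 10.6% (6.65 to 15.7%) from 1 to 5 kb, 2.60% (1.87 to 3.53%) from 50 to 100 kb and 7.09% (4.39 to 10.7%) beyond 1000 kb. For narrower outside peaks the shares at these distances were 1.91%, 1.67%, 0.674% and 0.648%. Distance to H3K27ac was not separated here from nearness to a stretch.

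The 3 nearest and the 3 farthest members are given as examples. The nearest lay 21 bp from an H3K27ac region at chromosome 6 from 26322748 to 26324001, with 14 fragments over 5.04. The next lay 38 bp away at chromosome 7 from 5463482 to 5464392, with 23 fragments over 10.5, and 56 bp away at chromosome 9 from 2620176 to 2621032, with 8 over 2.06. The farthest lay 3571 kb away at chromosome 5 from 27958942 to 27960636, followed by 3459 kb at chromosome 21 from 23519846 to 23520662 and 3222 kb at chromosome 13 from 88776196 to 88777006. These had 4, 5 and 4 fragments over a background of 1.30 and a −log10 q of 0. None of these 6 peaks reached a q of 0.05.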

How the data were processed

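ChIP-seq peak lists of a CREBBP sample and an H3K27ac sample were used, with 1 sample a group. The submitters' processing notes name MACS2, Bowtie2, STAR and fastp and the build hg19. Settings and the control library: not given in the sources used here. The authors deposited for each interval a fold enrichment (a ratio), a −log10 p, a −log10 q and a score. For CREBBP peaks that score, as deposited, equals 10 times −log10 p without its decimals, and the smallest −log10 p was 1.30, so peaks of p up to 0.05 are listed whatever their q. The depth of the libraries is unknown. Intervals outside chromosomes 1 to 22 and X, 128 CREBBP peaks and 17 H3K27ac regions, were left out. Positions are on hg19, counted from 1.

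Inside means at least 1 shared bp. Distances run between nearest edges. Fragments and background at the summit were solved by taking fold as fragments plus 1 over background plus 1 and p as the upper Poisson tail. For 8340 of the 8342 members a whole fragment number gave −log10 p to within 0.001, and the other 2 have no such value. These are inferences from the deposited values.

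Peaks named are the 10 widest, the 5 of largest fold, the 5 of highest −log10 q, the 3 nearest to and farthest from H3K27ac, those at the width limit and the 5 largest clusters. The members, lists and rules were chosen with earlier results of these data known. No peak was assigned to a gene and no sequence is printed, since the tables at hand are on GRCh38. No test was run. Alternatives changed the width limit, the definition of outside, the q limit, the flank, the stretch, the joining distance, the cluster size and the distance limit. Python 3.11.15, numpy 2.4.6, pandas 2.3.3, scipy 1.17.1 and matplotlib 3.10.9 were used. The steps were tested on simulated data: fragments were recovered in 1000 of 1000 peaks that followed the assumed formula, and planted stretches and clusters in 100 of 100 sets each.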

Additional observations from a re-analysis of the deposited data

How the results depend on the processing

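Of 62 values under alternatives, 28 stayed within the interval of the reported value, or for the number of members within 1.5 times, and 34 moved. A limit of 600 bp gave 25261 peaks, of which 3.69% lay near a stretch, 72.7% in clusters, 63.0% over 50 kb from H3K27ac and 2.31% reached a q of 0.05, with a median fold of 2.50. A limit of 1000 bp gave 2904, with 6.37% near, 14.9% in clusters and 5.72% past that q. At least 10 kb from H3K27ac, 30.6% were in clusters and 67.4% over 50 kb away. Outside the upper 50% of H3K27ac regions only, 36.2% were in clusters, 75.1% over 50 kb away and 6.23% past q, over a median background of 1.31. Among the 309 members with q of at most 0.05, 26.9% were near, 27.5% in clusters and 54.4% over 50 kb away, with a median fold of 3.92 and background of 2.06. A flank of 1 Mb held 2.92% and one of 5 Mb 8.40%. With the longest stretch between peaks in place of one from a chromosome's start, 4.48% lay near (4.05 to 4.95%). For this alternative a chromosome counted only if that stretch was 2 Mb or longer. Joining over 20 kb put 5.72% in clusters, over 500 kb 87.8%, and pairs counted as clusters 58.6%. Over 10 kb from H3K27ac lay 91.3% and over 500 kb 9.53%. The next 2 alternatives were chosen after seeing the data. Without the members near a stretch, 32.3% were in clusters and 2.84% past q. Without chromosomes 7 and 21, 4.11% were near, 30.8% in clusters and 59.9% over 50 kb away. The share in clusters thus depends on the joining distance and the width limit, which sets how many peaks there are to join. The share past q outside the upper 50% of H3K27ac regions includes peaks inside the weaker regions. No paired analysis was possible because there was 1 CREBBP sample and 1 H3K27ac sample. What depth limits could not be measured, since the lists do not state it.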
